A study of Mus musculus with 26 samples.

Results

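Intergenic open chromatin that was found in every profiled state of both striatal projection neuron types made up 3234 elements. An element is a peak of the D1 SS list on chromosomes 1 to 19 and X, placed by the authors outside genes and promoters, that shares at least 1 bp with a peak in each of the other 7 lists. These 3234 were 41.3% (95% interval 40.2 to 42.4%) of the 7839 intergenic D1 SS peaks, which is the background share for every count of elements below, and 11.3% of all 28568 D1 SS peaks. They covered 1.78 Mb. Members were thus chosen by peak presence and by the authors' class, so their presence in 8 lists is a description and not a finding.

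The data are ATAC-seq peak lists of mouse medium spiny neuron (MSN) nuclei. The tissue is labelled brain, and the title of the series names the nucleus accumbens. D1 MSNs carry the dopamine receptor Drd1 and D2 MSNs the receptor Drd2. Each type was profiled at baseline (SS), after acute cocaine (SC), after chronic cocaine and a long withdrawal (CS) and in cocaine relapse (CC). The labels give no strain, age, sex, dose or sorting scheme. The D1 groups had 2 (SS), 4 (SC), 4 (CS) and 4 (CC) libraries, and the D2 groups had 2 (SS), 1 (SC), 8 (CS) and 1 (CC), 26 in all. Each group has a single peak list, so no value has a replicate error and no test between groups was possible. Intervals of shares are exact Clopper-Pearson intervals at 95% that cover counting error only. Those of median distances, also at 95%, are taken from the ranked distances of the peaks and hold no replicate error either. The lists differed in length, from 27898 peaks in D2 CS to 77070 in D1 CC, with 28310 in D1 SC, 48443 in D1 CS, 58790 in D2 SC, 61796 in D2 SS and 68424 in D2 CC.

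ATAC-seq reads DNA that a transposase can reach, which is mostly DNA freed of nucleosomes by bound proteins. Outside genes and promoters such sites are commonly enhancers, insulator sites bound by CTCF, promoters of unannotated or noncoding transcripts, or transfer RNA (tRNA) genes. Distal sites as a class tend to vary more between cell types than promoters do, and an enhancer need not act on the gene nearest to it. Gene names below therefore give location, not a target.

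The intergenic class stood at the low end of the D1 SS classes in its share of peaks found in all lists. Of all D1 SS peaks, 60.8% were found in all 8 lists (17382 peaks), and the share was 93.5% for proximal promoters, 68.7% for the authors' 1 kb promoter class, 47.8% for their 3 kb class and 43.4% for gene bodies. The intergenic elements made up 18.6% of the 17382. In the authors' own annotation 3223 of the 3234 elements were intergenic in all 8 lists, 8 carried the 3 kb promoter class in some list and 3 a gene-body class.

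Membership was decided almost entirely by the D1 SC and D2 CS lists, which with D1 SS were the shortest of the 8. Of the 4605 intergenic D1 SS peaks that are not elements, 77.0% had no overlapping peak in D1 SC and 86.1% none in D2 CS. Only 40 were in both of those lists and missing elsewhere. The 1410 peaks just outside the rule lacked 1 list: 864 lacked only D2 CS, 514 only D1 SC, 24 only D1 CS, and 8 in all lacked only a D2 SS, SC or CC peak. Just inside, 27 elements rested on an overlap under 50 bp in some list, and 6 on an overlap under 10 bp. Just outside, 20 peaks had a peak of the missing list within 50 bp. The D1 SS fold enrichment of a peak, the authors' ratio of its signal to the local background, moved with membership. Elements had a median fold of 5.33 in D1 SS, the 1410 peaks missing 1 list 4.49 and all 4605 non-elements, those 1410 included, 4.17, and over 5 equal classes of fold, from the lowest to the highest, the share of elements was 15.9, 27.5, 33.9, 49.8 and 79.4%. For a site absent from D1 SC or D2 CS, closed chromatin and a signal under the detection limit of a short list cannot be told apart.

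Most elements can be known here only by position, but 85 of them (2.63%, 2.10 to 3.24%) overlapped a window of 300 bases around a RefSeq transcription start site (TSS) whose sequence is at hand, against 33 of the 4605 others (0.717%, 0.494 to 1.00%). Of the 85, 65 lay at windows of long noncoding RNAs (lncRNAs) and 22 at windows of protein-coding genes, some at both. Upstream sequences of 6 are shown: 4 of elements near the top of every list, and 2 of elements near activity-regulated genes. They were picked after their values were seen and do not span the set, in which some weak elements are GC-rich as well. Some strong elements hold none of the motifs below, such as those at Gm51425 (52.8% GC) and Gm33797 (48.8% GC). They run 5′ to 3′ on the strand of the transcript, stop at the base before the TSS and lie wholly inside the D1 SS peak (RefSeq, GRCm38.p6, the build of the files). Capitals mark a motif match on either strand: GC box (GGGCGG or CCGCCC, bound by Sp/Klf factors), AP-1 (TGANTCA, a loose form of the site bound by Fos and Jun dimers) or NRF1 (GCANGCGC, the core bound by nuclear respiratory factor 1). The loose AP-1 form allows any middle base, while the usual Fos and Jun site has C or G there. A match to it need not be such a site. The positions are chr17:17234653-17234902, plus strand, for Gm5165; chr15:85634346-85634595, plus strand, for D130051D11Rik; chr10:22058655-22058904, minus strand, for Gm34267; chr6:117879383-117879632, plus strand, for Gm38882; chr10:67482584-67482833, minus strand, for Gm51825; and chr1:143938411-143938608, plus strand, for Gm41964.
Gm5165: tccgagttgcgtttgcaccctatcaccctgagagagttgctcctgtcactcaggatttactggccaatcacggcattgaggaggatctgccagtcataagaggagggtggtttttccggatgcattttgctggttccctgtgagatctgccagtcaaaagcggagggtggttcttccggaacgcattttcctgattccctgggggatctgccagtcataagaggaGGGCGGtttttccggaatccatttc
D130051D11Rik: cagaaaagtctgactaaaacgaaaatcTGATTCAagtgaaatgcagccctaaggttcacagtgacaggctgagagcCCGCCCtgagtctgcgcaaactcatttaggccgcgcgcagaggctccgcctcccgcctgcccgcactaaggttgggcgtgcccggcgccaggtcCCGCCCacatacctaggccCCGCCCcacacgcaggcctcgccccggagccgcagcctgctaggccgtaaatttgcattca
Gm34267: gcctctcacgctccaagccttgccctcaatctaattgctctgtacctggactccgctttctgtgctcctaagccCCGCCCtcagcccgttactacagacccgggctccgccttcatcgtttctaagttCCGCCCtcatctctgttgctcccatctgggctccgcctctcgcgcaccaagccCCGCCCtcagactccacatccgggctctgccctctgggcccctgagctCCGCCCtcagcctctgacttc
Gm38882: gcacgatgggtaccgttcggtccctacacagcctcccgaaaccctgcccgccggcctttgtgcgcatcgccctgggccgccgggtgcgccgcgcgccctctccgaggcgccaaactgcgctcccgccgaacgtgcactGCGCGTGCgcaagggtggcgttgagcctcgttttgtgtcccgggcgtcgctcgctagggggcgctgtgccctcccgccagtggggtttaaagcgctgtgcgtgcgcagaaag
Gm51825: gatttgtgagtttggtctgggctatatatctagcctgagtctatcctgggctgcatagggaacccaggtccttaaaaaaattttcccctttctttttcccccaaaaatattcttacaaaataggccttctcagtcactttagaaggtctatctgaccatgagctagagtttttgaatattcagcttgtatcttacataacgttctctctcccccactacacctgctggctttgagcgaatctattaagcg
Gm41964: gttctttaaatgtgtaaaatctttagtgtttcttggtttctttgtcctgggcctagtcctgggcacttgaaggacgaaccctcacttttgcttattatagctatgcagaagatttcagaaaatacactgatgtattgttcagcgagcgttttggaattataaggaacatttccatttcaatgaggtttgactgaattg

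The activity-regulated genes are Egr2 and Rgs2, nearest to the last 2 elements. Gm5165, a protein-coding model whose start the authors' annotation did not mark as a promoter, had folds of 10.2, 10.5, 10.5 and 12.1 in D1 SS, SC, CS and CC and 11.9, 11.5, 9.1 and 11.3 in the D2 lists in the same order. Its single GC box lies close to the TSS. The lncRNA D130051D11Rik starts 52.9 kb from Wnt7b, a secreted Wnt ligand. Its upstream sequence of 61.6% GC holds 3 GC boxes and a match to the loose AP-1 form, TGATTCA, whose middle base is T. That element ranked between the 97.7th and the 99.5th fold percentile of the 8 lists, where the percentile is the share of a list's peaks with a lower fold. Gm34267 showed 4 GC boxes spaced through its 250 bases and percentiles of 95.8 to 99.2. Gm38882, 16.7 kb from the zinc finger gene Zfp239, had 70.4% GC and an NRF1 match, shown there as its reverse complement, with percentiles of 93.1 to 97.8. The Gm51825 element near Egr2 (41.6% GC, no match) ran from 11.8 in D1 SS and 18.5 in D2 CS to 83.9 in D1 CC. The Gm41964 element near Rgs2 (37.4% GC, no match) ranked between 63.9 and 83.0. Ranked only among the 17382 D1 SS peaks found in all lists, it was not the steadier of the 2. It then ran from 16.4 in D1 CC to 69.5 in D1 SS, and the Gm51825 element from 6.44 in D1 SS to 44.8 in D1 CC.

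Of the 62 such windows that overlapped an element by at least 200 bp, 47 were lncRNA windows and 15 coding windows. Median GC was 53% in the 47, against 48.3% in all 11574 lncRNA windows, and 54.7% in the 15, against 56.7% in all 21045 coding windows. The ratio of observed to expected CpG was 0.395 against 0.245 for lncRNA windows and 0.503 against 0.574 for coding windows. The 17 windows at other intergenic D1 SS peaks, all of lncRNAs, had 43% GC and a CpG ratio of 0.384. A GC box was found in 22 of the 62 (35.5%, 23.7 to 48.7%), against 16.3% of lncRNA and 46.7% of coding windows and 2 of the 17 at other intergenic peaks. The loose AP-1 form matched 9 of 62 (14.5%, 6.86 to 25.8%) against 9.31% and 7.04%, and 5 of the 17 (29.4%, 10.3 to 56.0%). These shares were not split by the middle base. The NRF1 core also matched 9 of 62 (14.5%), against 4.04% and 12.7%, and none of the 17, which allows up to 19.5%. The cAMP response element TGACGTCA was not found, and 0 of 62 allows a share of up to 5.78%, beside 0.976% of lncRNA and 2.26% of coding windows. All motifs were searched on both strands. Motif shares were not split by type, and the 62 mix lncRNA and coding windows while the 17 are all of lncRNAs. Some windows lie in the same peak and share sequence, so the windows are not all independent. No matches overlapped each other in the printed sequences.

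Elements lay nearer to protein-coding TSSs than other intergenic D1 SS peaks, at each level of D1 SS fold. The median distance from the middle of the peak was 80.9 kb (75.8 to 85.2 kb, quartiles 26.6 and 210.6 kb) for elements and 151.4 kb (143.3 to 161.1 kb) for the 4605 others. The share of elements was 76.2% under 3 kb (48 of 63), 53.5% at 3 to 10 kb (247 of 462), 49.0% at 10 to 50 kb, 47.0% at 50 to 100 kb, 37.5% at 100 to 500 kb and 25.1% from 500 kb on (286 of 1140). The 63 peaks under 3 kb lie near RefSeq starts, or near either gene end where no strand was known. The authors' classes do not treat these positions as promoters. Within the lowest of 5 equal classes of D1 SS fold the medians were 42.8 kb for elements and 115.5 kb for others, and within the highest they were 130.3 and 267.0 kb. The median of the elements' mean percentile over the 8 lists was 71.8 under 3 kb, 68.1 at 3 to 10 kb, 71.5 at 10 to 50 kb, 72.9 at 50 to 100 kb, 77.4 at 100 to 500 kb and 80.5 from 500 kb on. From 3 kb on the more distant elements thus ranked higher.

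**Figure D1:**
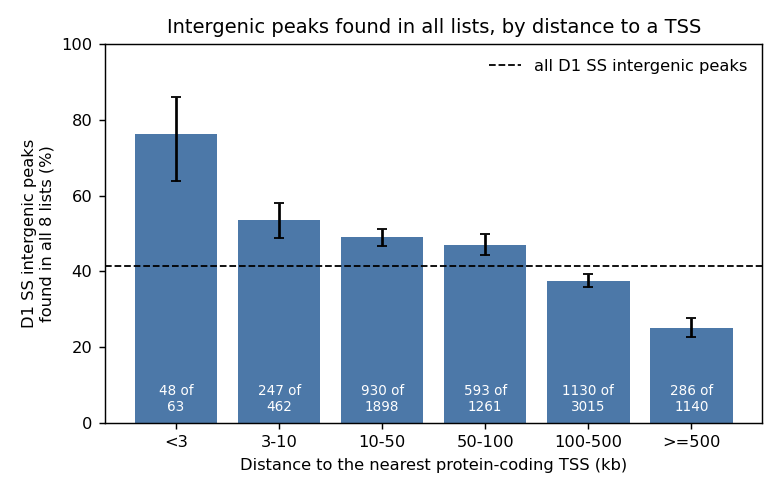
Share of D1 SS intergenic peaks found in all 8 lists (percent, y axis) by distance to the nearest protein-coding TSS (kb, x axis), with exact 95% intervals for counting error and the counts in the bars. The share was 76.2% under 3 kb and 25.1% from 500 kb on, beside 41.3% over all bins (dashed line).

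The farthest element lay 2411 kb from a coding start, on chromosome 14, nearest to the protocadherin gene Pcdh20. It was 723 bp wide in D1 SS, with folds of 6.78, 7.42, 6.71 and 8.61 in D1 SS, SC, CS and CC and 7.71, 8.35, 5.90 and 7.08 in the D2 lists in the same order. The next lay beyond Pik3c3, a lipid kinase of autophagy, Lrrc4c, a synaptic adhesion protein, Celf4, a neuronal RNA-binding protein, and Cdh20, a cadherin. The Cdh20 element differed from the other 4 in shape. It was 215 to 242 bp wide in all 8 lists, and its fold was 13.04 in D1 SC, 10.7 in D1 CS, 9.95 in D1 CC and 11.2 in D2 CS but 6.64 in D1 SS and 5.04, 6.02 and 6.13 in D2 SS, SC and CC. The high values are those of the lists with 4 or 8 libraries and the low ones those of the lists with 1 or 2. By percentile within a list they were 98.0 to 99.7 and 63.0 to 87.6.

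Several kinds of RefSeq feature occurred more often under elements than under the other intergenic peaks. A tRNA gene lay under 30 elements (0.928%, 0.627 to 1.32%) and under 8 of the others (0.174%, 0.0750 to 0.342%), and the 30 elements held 33 of the 408 tRNA genes in the table. An lncRNA body lay under 461 elements (14.3%) and 408 others (8.86%), and a coding gene body of RefSeq under 3.87% and 2.28%. Pseudogenes did not follow this order, with 15 elements (0.464%) and 24 others (0.521%). Annotated microRNA, small nuclear and small nucleolar RNA genes lay under none of either set. Elements are wider in D1 SS (median 569 against 398 bp), which raises any overlap, and these shares were not adjusted for width. The tRNA elements were wide rather than strong, with a median of the mean width of 823 bp against 632 bp for all elements, and a median mean percentile of 68.1 against 74.5. They ranged from a glycine tRNA gene element 14.6 kb from Fcgr3 (chromosome 1, 171044400 to 171045223, mean percentile 92.1) to a proline tRNA gene element 5.25 kb from Aurkb, a mitotic kinase (chromosome 11, 69040188 to 69040559, mean percentile 10.7).

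Elements were mostly solitary. A cluster is a run of elements with neighbouring gaps of at most 25 kb. In all, 761 elements (23.5%, 22.1 to 25.0%) lay in 346 clusters, 290 of them pairs, and the median gap between neighbours was 346 kb. The other intergenic D1 SS peaks gave 25.7% (24.5 to 27.0%) by the same measure. Those peaks number 4605 against 3234 elements, and a denser set has more close neighbours by number alone. The shares were not adjusted for this, so they do not show which set clusters more. Both largest clusters hold 5 elements on chromosome 13. One spans 60.2 kb (21200008 to 21260188) beside Trim27, a ubiquitin ligase gene, and Gpx5, a glutathione peroxidase gene. Of the 5 elements there, all hold a tRNA gene: for alanine in 4 cases (mean percentiles 91.4, 88.1, 74.5 and 58.6) and for leucine in 1 (87.0). The other spans 34.6 kb (93000440 to 93035081), 110 to 144 kb from Cmya5, a gene of a muscle cytoskeletal protein. Of the 9 clusters of 4, the 3 with the highest mean percentile lay on chromosome 8 near Maf (116096496 to 116144651), a transcription factor gene, on chromosome 16 near Btg3 (78407814 to 78443528), an antiproliferative gene, and on chromosome 3 near Emcn (137015055 to 137078229), an endothelial sialomucin gene. By chromosome the share of intergenic peaks that were elements ranged from 36.1% on 10 to 50.7% on 7 (69 of 136).

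The elements were nearest to 2112 protein-coding genes. Of these genes, 661 had at least 2 elements, 265 at least 3, 44 at least 5 and 6 at least 8. Pik3c3 had the most (13 of its 32 D1 SS intergenic peaks), followed by Celf4 (9 of 22) and Tbl1xr1, a corepressor subunit (9 of 15). Inhba, the activin A subunit, had 8 of 11, Map3k7, a stress kinase, 8 of 24, and the gene model LOC115488529 8 of 9. Then came Igfbp7 (7 of 14), a secreted binding protein of growth factors, Cobl (7 of 12), an actin nucleator, D3Ertd751e (7 of 20) and Noct (7 of 9), a clock-regulated phosphatase. The elements of Pik3c3 and Celf4 reached out to 2188 and 2142 kb, while those of LOC115488529 lay within 91.9 kb.

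Gene lists that fit these neurons differed in the share of their intergenic D1 SS peaks that were elements. Near immediate-early genes, which respond within minutes to neuronal activity, 15 of 23 peaks were elements (65.2%, 42.7 to 83.6%). Near other activity-regulated genes the count was 24 of 32 (75%, 56.6 to 88.5%), and near synaptic adhesion genes 18 of 88 (20.5%, 12.6 to 30.4%), beside 41.3% over all intergenic peaks. Transcription factors of striatum and forebrain had 44 of 118 (37.3%), glutamate and GABA receptors 14 of 44 (31.8%), D1 MSN markers 11 of 37 (29.7%), pan-MSN markers 5 of 16 (31.3%), D2 MSN markers 4 of 6, dopamine and cAMP signalling genes 4 of 10 and housekeeping genes 5 of 8. Distance differed between these lists too. The median distance of the peaks was 26.3 kb for immediate-early genes, 65.2 kb for other activity-regulated genes and 902 kb for adhesion genes. From 50 kb on, where 37.1% of all intergenic peaks were elements, the counts were 5 of 11, 14 of 20 and 16 of 86. Under 50 kb (50.6% over all) they were 10 of 12, 10 of 12 and 2 of 2. Some genes are in more than 1 list, and peaks near 1 gene are not independent: 8 of the 24 lie near Inhba and 6 near Scg2.

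**Figure D2:**
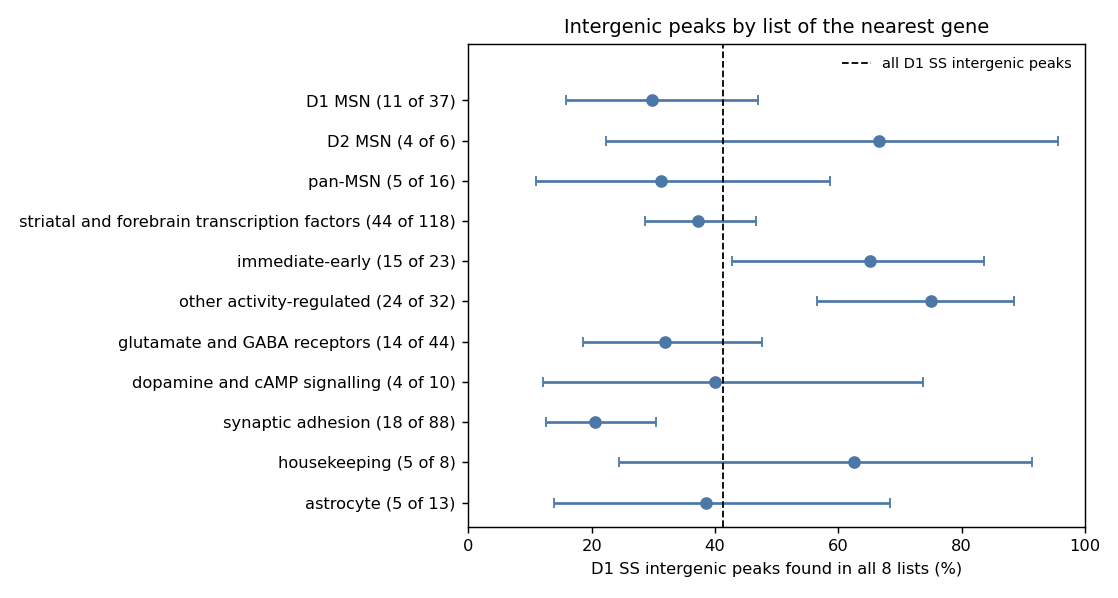
Share of D1 SS intergenic peaks found in all 8 lists (percent, x axis) by the list that the nearest protein-coding gene belongs to (y axis), for lists with at least 5 such peaks; bars are exact 95% intervals for counting error. Other activity-regulated genes stand at 75% and synaptic adhesion genes at 20.5%, beside the dashed line at 41.3%.

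Among immediate-early genes, every intergenic D1 SS peak was an element for Fos (2 of 2), Egr1 (3 of 3), Nr4a1 (2 of 2) and Npas4 (1 of 1). Egr2 and Arc had 2 of 3 each, Nr4a3 2 of 5, Jun 1 of 2, and Nr4a2 0 of 2. The strongest was 18.4 kb from Fos, the AP-1 subunit (chromosome 12, 85455084 to 85455833). Its folds were 7.0, 9.86, 8.33 and 9.08 in D1 SS, SC, CS and CC and 8.10, 8.45, 8.41 and 8.83 in the D2 lists in the same order. That placed it between the 90.7th and 96.6th percentile of every list, at baseline as in the cocaine states. An element 11.97 kb from Npas4, a neuronal activity-dependent factor (chromosome 19, 5001645 to 5002243), ranked from 86.2 in D2 SC to 94.2 in D1 CS. The 3 near Egr1, a zinc finger factor, were weak, with mean percentiles of 27.2 to 32.7. The weaker of the 2 elements near Arc, a synaptic plasticity gene, was among the 5 lowest of all elements (mean percentile 14.3, chromosome 15, 74667534 to 74667940) and had folds of 2.63 in D1 SS and 2.93 in D2 CS.

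Of the other activity-regulated genes, Scg2, a secretory granule protein, had 6 of 6 and Inhba 8 of 11 peaks as elements. Dusp6, a phosphatase of ERK, and Nptx2, a synaptic pentraxin, had 2 of 2 each, and Rgs2, a regulator of G protein signalling, had 3 of 6. Of the 6 near Scg2, 2 are adjacent D1 SS peaks that fall within a single peak in each other list. The element 21.9 kb from Dusp6 (chromosome 10, 99284767 to 99285418) ranked from 86.5 in D2 CS to 98.5 in D1 CC. Those of Inhba were all distal, 234 to 727 kb from its start. The strongest of them, at 727 kb (chromosome 13, 16738182 to 16738980), ran from 77.7 in D1 SC to 99.7 in D2 CC. Bdnf, a neurotrophin gene, had 1 intergenic peak in D1 SS and no element.

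Elements near MSN identity genes are by rule present in both cell types, so their levels are described here. Pdyn, the dynorphin precursor of D1 MSNs, had 2 of 2. The farther one (chromosome 2, 129733933 to 129734580) had folds of 6.03, 9.92, 9.03 and 10.4 in D1 SS, SC, CS and CC and 7.56, 8.94, 7.18 and 9.78 in the D2 lists. Tac1, the substance P precursor, had 3 of 6, the strongest at 225 kb (chromosome 6, 7330129 to 7330797) with percentiles of 82.1 to 97.5. Penk, the enkephalin precursor of D2 MSNs, had 2 of 2, and the stronger (chromosome 4, 4199171 to 4199872) had folds of 7.45, 8.28, 8.43 and 8.12 in the D1 lists and 7.76, 8.07, 8.49 and 7.35 in the D2 lists. The element 8.54 kb from Gpr6, an orphan receptor of D2 MSNs (chromosome 10, 41063449 to 41064047), ranked from 73.2 in D1 SS to 96.9 in D1 CC. For these 4 genes the ranges in D1 and in D2 lists overlapped. The folds given for Pdyn and Penk are not scaled between lists. Adora2a had 1 intergenic D1 SS peak and no element. Elements near Rarb, a retinoic acid receptor, and Bcl11b, a zinc finger factor of MSNs, were weak, with mean percentiles of 48.1 at most and 16.9.

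Drd1 itself had 2 elements among 13 intergenic peaks, and 5 of the other 11 were in no D2 list, beside 49 of the 4605 other intergenic peaks (1.06%). The element at 179 kb (chromosome 13, 53875357 to 53876104) had folds of 7.21, 6.99, 6.88 and 6.96 in D1 SS, SC, CS and CC and 5.32, 6.57, 4.98 and 5.25 in D2. It was 748 bp wide in D1 SS and 561 to 680 bp in the D2 lists. The nearer one, at 23.9 kb (54030437 to 54031284), had folds of 6.43 to 7.51 in D1 and 5.32 to 7.12 in D2, and those ranges overlapped. As folds are not scaled between lists, they give no comparison of levels. By percentile within a list the element at 179 kb ranked 68.5 to 92.3 in D1 and 43.5 to 77.1 in D2, so these ranges overlapped too.

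Elements of the transcription factor list had a median mean percentile of 76.1 and those of the adhesion list 85.0, beside 74.5 for all elements. The strongest of each list is given in full. The element 480 kb from Mef2c, a neuronal MADS-box factor (chromosome 13, 83023804 to 83024486), ranked from 94.9 in D2 SS to 99.6 in D1 SC. Tle4, a corepressor, had 5 of 6 and Mef2c 3 of 7. Among adhesion genes, Adgrl3, a latrophilin, had 5 of 16 and Epha4, an ephrin receptor, 3 of 6, while the teneurin gene Tenm2 had 0 of 12. The element 1885 kb from Lrrtm1, a postsynaptic organizer (chromosome 6, 75357168 to 75357844), ranked from 95.6 to 99.7. Markers of other cell types had elements too. Astrocyte markers had 5 of 13 peaks as elements (38.5%), 3 near Sox9 and 2 near Aqp4, interneuron markers 2 of 4, both near Npy, and the oligodendrocyte gene Mog and the vascular gene Tek had 1 of 1 each. The 6 microglial markers had no intergenic D1 SS peak. The Mog element ranked 19.9 in D1 SS and 80.1 to 99.1 in the other 7 lists. What part other cells have in these elements was not tested.

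**Figure D3:**
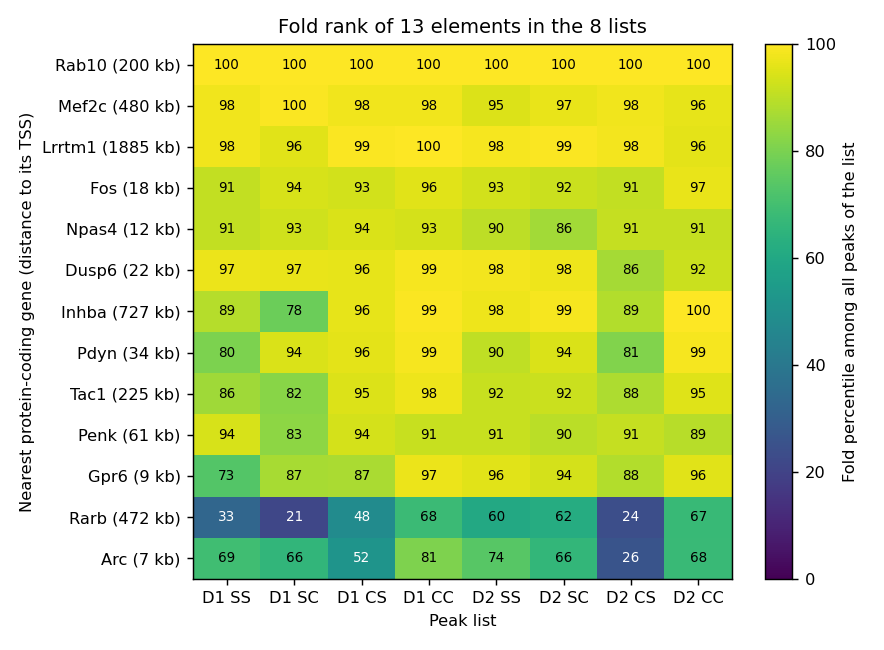
Fold percentile among all peaks of a list (colour and number) for 13 elements, named by nearest protein-coding gene with the distance to its TSS in kb (y axis), in the 8 peak lists (x axis). The Rab10 element leads 7 lists and is the second in D2 CS, Fos, Mef2c and Lrrtm1 elements stay above 90, and those of Rarb and Arc vary.

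A handful of elements were at the very top of all lists. The element 200 kb from Rab10, a vesicle-trafficking GTPase (chromosome 12, 3109656 to 3110307), had the highest fold of any peak in 7 lists and the second highest in D2 CS. Its folds were 16.4, 20.2, 17.8 and 18.7 in D1 SS, SC, CS and CC and 17.1, 17.9, 17.5 and 18.2 in D2, and its width varied only from 652 to 714 bp. It was followed by elements near Pex2, a peroxisome gene (chromosome 3, 5860176 to 5860972, folds 12.3 to 15.6), Sis, the sucrase-isomaltase gene (chromosome 3, 72323791 to 72324756, folds 10.9 to 13.1) and Rab39b (chromosome X, 75673661 to 75674679, folds 10.5 to 13.1). The rest of the top 10 were near Lipg, Eea1, Chd7, Arhgap12, Eif2s3x and 4931408C20Rik, with mean percentiles of 99.1 to 99.4. Distances in the 10 ran from 34.7 kb for Eif2s3x to 644 kb for Sis. Repeat content and mappability of these sites were not analysed here. In all, 76 elements (2.35%) were above the 90th percentile in all 8 lists and 1327 (41.0%) above the 50th, while 48 were below the 50th in every list.

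At the low end were 2 neighbouring D1 SS peaks 162 kb from Cypt12 that share a peak in D1 CS, D1 CC and the D2 lists, and elements near Irgm1, Aurkb and Arc. The Irgm1 element had folds of 2.67 to 3.85. The widest by mean width lay near 9330182O14Rik (1308 bp), Rcn1 (1272 bp), Ppara (1271 bp), Ly6c2 (1208 bp) and Arl4d (1181 bp). They were not alike in strength: the Ly6c2 element ranked at 98.2 on average and the Ppara element at 58.0.

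Elements were wider than the other intergenic peaks in each of the 8 lists. In D1 SS, SC, CS and CC their median widths were 569, 537, 649 and 749 bp, against 398, 242.5, 273 and 443 bp for all other intergenic peaks of the same list. In D2 SS, SC, CS and CC they were 707.5, 686, 511.5 and 733 bp, against 503, 501, 230 and 519 bp. Within each of the 5 fold classes of D1 SS, elements were also wider, from 356 against 283 bp in the lowest to 639 against 581 bp in the highest. A wider peak has more chance of sharing a base with another list, so width is not independent of the rule. The bases held by all 8 lists at once had a median of 271 bp (quartiles 199 and 524), the union a median of 812 bp, and 171 elements had no base common to all 8.

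**Figure D4:**
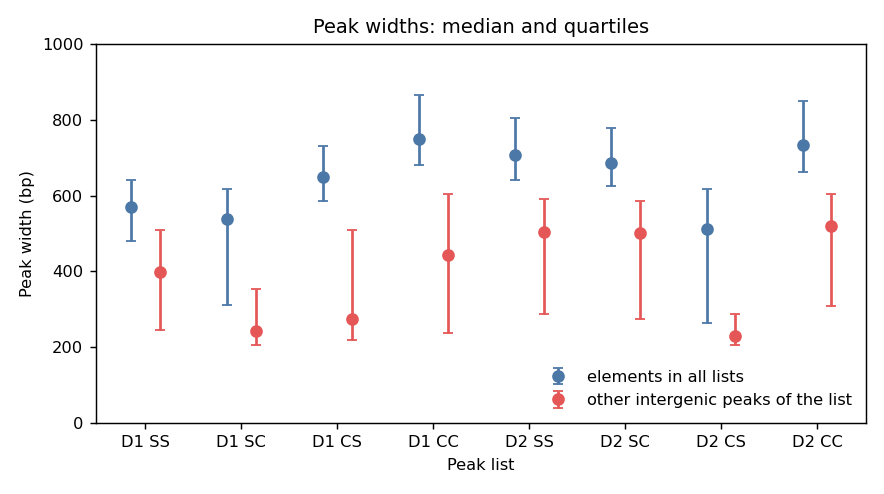
Peak width in bp (y axis) in each of the 8 peak lists (x axis) for the elements and for all other intergenic peaks of the same list; points are medians and bars quartiles. Element medians run from 511.5 bp in D2 CS to 749 bp in D1 CC, above the other intergenic peaks in each list.

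The rank of the elements by fold differed between lists. Their median percentile was 69.2, 59.3, 78.2 and 87.7 in D1 SS, SC, CS and CC and 85.6, 84.8, 57.3 and 86.8 in D2, and that of the other intergenic peaks of each list 33.5 to 47.9. The lists differ in length and in their weak peaks, so ranks were also taken among the 17382 D1 SS peaks found in all lists, the same sites in each case. There the elements' medians were 55.4, 41.2, 44.9 and 55.2 in D1 and 57.5, 58.8, 39.2 and 60.6 in D2. Proximal promoters had 54.8, 65.8, 63.4 and 57.8 in D1 and 55.7, 54.8, 66.1 and 53.9 in D2, and gene-body sites stayed at 33.0 to 43.5. Elements were thus level with or above promoters in the lists with 1 or 2 libraries (D1 SS and D2 SS, SC and CC) and below them in the lists with 4 or 8 (D1 SC, CS and CC and D2 CS). In D1 CC they were only a little below, at 55.2 against 57.8. The number of libraries, and any other difference between these lists, cannot be told apart from state and cell type in these ranks.

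**Figure D5:**
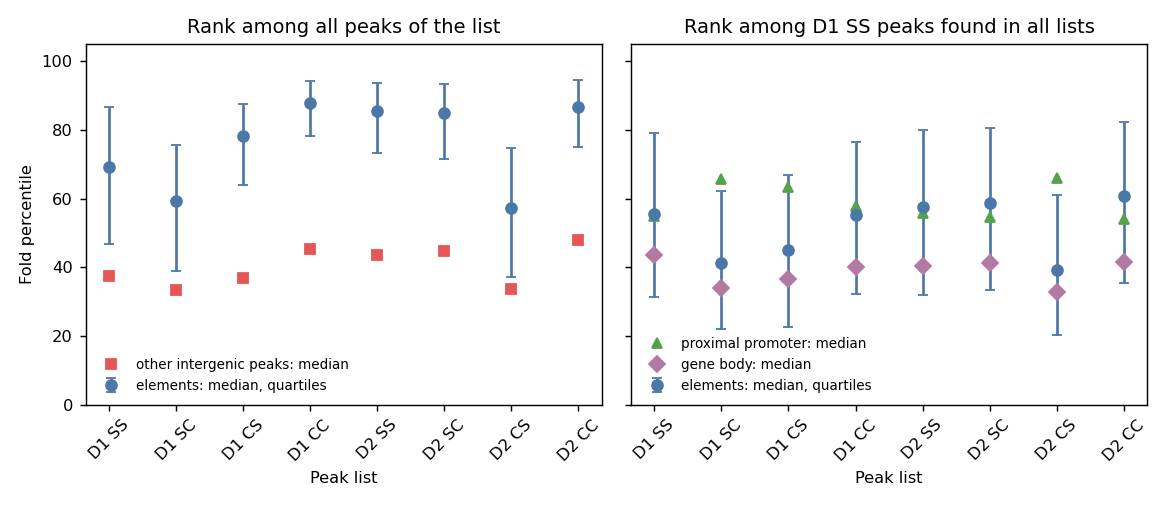
Fold percentile (y axis) in the 8 peak lists (x axis), ranked among all peaks of the list (left) or among the 17382 D1 SS peaks found in all lists (right); points are medians and bars the quartiles of the elements. On the right, element medians of 39.2 to 60.6 cross those of proximal promoters, while gene-body sites stay at 33.0 to 43.5.

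The order of the elements by fold was shared between lists to a varying degree. Across the 3234 elements Spearman's rho between the folds of 2 lists ran from 0.493 (D2 CS and D2 CC) to 0.883 (D2 SS and D2 SC). It had a median of 0.781 over the 6 pairs of the same cell type and the same library-number class (1 or 2 against 4 or 8), 0.675 for different cell types in the same class, 0.528 for the same cell type across classes and 0.551 where both differed. D1 CC, with 4 libraries, did not follow these classes. Its rho was 0.724, 0.727 and 0.777 with D2 SS, SC and CC and 0.606 with D1 SS. Within its own class it was 0.598, 0.695 and 0.568 with D1 SC, D1 CS and D2 CS. These values describe the same sites in lists that share a peak caller, and carry no p. An element's percentile among the 17382 sites ranged over a median of 43.9 points across the 8 lists, against 39.3 for gene-body and 34.5 for promoter sites. The widest ranges of the percentile within a list were those of elements near Pgap1, Prmt6, Diaph3, Dguok and Phf2. The Pgap1 element stood at 3.39 in D2 CS, where its peak was 200 bp wide, and at 59.0 to 95.3 in the other lists.

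Few elements ranked apart between the cell types. The percentile used for this split is the rank among the 17382 D1 SS peaks of all classes found in all lists. Elements higher by it in all 4 D1 lists than in any D2 list numbered 45 (1.39%), beside 1.62% of those sites. The reverse order held for 54 (1.67%), beside 1.55%. The shares are near the background. Among the 45, named after their values were seen, were elements near Sox13, a SoxD factor, and Drd1. The Sox13 element, 68.5 kb away (chromosome 1, 133492423 to 133492958), had folds of 4.49, 6.98, 6.60 and 10.3 in D1 SS, SC, CS and CC and 4.32, 4.56, 4.33 and 4.52 in D2. Its percentiles among the 17382 sites were 32.4 to 94.3 in D1 and 6.91 to 10.7 in D2. Among all peaks of a list it was not apart, at 48.0 in D1 SS and 52.0 in D2 CC. Its fold in D1 SS was also below those in D2 SC and D2 CC. Among the 17382 sites the element at 179 kb from Drd1 stood at 87.8, 52.0, 56.2 and 43.5 in D1 and 23.1, 43.0, 25.6 and 22.9 in D2. Its lowest D1 and highest D2 ranks thus nearly met. Among all peaks of a list it was not apart, at 68.5 in D1 SC and 77.1 in D2 SC. In the other direction an element 1105 kb from Pcdh7, a protocadherin gene (chromosome 5, 58822637 to 58823139), had folds of 4.10, 6.05, 3.34 and 6.31 in D1 and 8.52, 10.3, 7.76 and 8.27 in D2. An element 133 kb from Cntn3, a contactin gene, had 5.47, 5.96, 4.00 and 6.12 in D1 and 8.26, 8.36, 6.83 and 9.04 in D2. Folds are not scaled between lists. Among the 17382 sites the Pcdh7 element ranked 0.664 to 32.5 in D1 and 78.6 to 94.8 in D2. The Cntn3 element ranked 3.62 to 58.7 in D1 and 64.7 to 90.7 in D2.

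Splits by state set 2 lists against 6, so their counts cannot be set beside those of the cell types, and each is read against its own background. Ranks in these splits are again those among the 17382 sites. Both SS lists ranked 236 elements (7.30%) above all 6 cocaine lists, beside 4.15% of all classes, and 90 (2.78%) below them, beside 4.49%. Both SS lists are among those with 1 or 2 libraries, so an order by state here cannot be told apart from one by library number. Both CC lists ranked 242 elements (7.48%) above the other 6, beside 4.35%, and 88 (2.72%) below, beside 7.86%. Lists with 1 or 2 libraries ranked 488 elements (15.1%) above all lists with 4 or 8, beside 5.97%, and the reverse held for 80 (2.47%), beside 5.63%. With ranks taken among the 3234 elements alone, which removes the shift of the whole class against promoters, the counts were 129 and 158 for SS, 107 and 205 for CC and 215 and 210 for the library split. As shares these were 3.99 and 4.89%, 3.31 and 6.34%, and 6.65 and 6.49%. Ranks within the class have no background of all classes, so these shares cannot be read as an excess or a lack. What sets the 2 rankings apart was not tested. Elements near Rack1, Kcnv1 and Hrh4 led the SS side and elements near Chac2, Stx16 and Rtp4 the CC side, named after their values were seen. The Chac2 element (chromosome 11, 31169397 to 31169840) had folds of 8.99 and 9.05 in D1 CC and D2 CC and 4.49 to 6.58 in the other 6 lists. Folds are not scaled between lists. Its ranks among the 17382 sites were 81.3 and 90.8 in CC against 7.41 to 50.3. The Klf12 element (chromosome 14, 100461289 to 100461996), near a Krüppel-like repressor gene, was lower in CC than elsewhere in rank among the 17382 sites. It stood there at 18.5 in D1 CC and 26.4 in D2 CC against 28.3 to 72.3. Among all peaks of a list it was not lowest in CC, at 68.9 in both CC lists against 63.5 to 81.9.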

How the data were processed

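Peaks on mm10 were deposited by the authors as 1 list per group. The submitters' processing notes name cutadapt, HISAT, SAMtools and MACS2, with no versions or roles. Pooling of libraries for peak calling is not given in the sources used here. Each list gives a fold enrichment, a ratio deposited by the authors that is not scaled between lists, and a q-value deposited by the authors (at most 0.0453). Folds were therefore ranked within a list, ties taking their mean rank. The Region class of a peak is the authors'. Read totals are not in the lists, so depth is unknown and list length stands in for it. The lists hold 0 columns per library.

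Elements, gene lists and the rule for named elements were chosen with earlier results of these data known. In another list an element is represented by the peak with the largest overlap. Distances run from the middle of the D1 SS peak to the nearest TSS of 21631 RefSeq protein-coding genes of the same build. The TSS came from the RefSeq promoter table (17274 genes), from the strand in the peak lists (2947) or, with no strand, from whichever gene end was nearer (1410). The rule named the 10 elements with the highest mean percentile (1 per gene), the 5 lowest, the 5 widest, the 5 with the widest range, the 5 largest clusters, the 5 farthest from a TSS, the 10 genes with most elements, and up to 3 elements per gene list. In the comparison of state and cell type, groups of lists were called apart when their ranges of the percentile among the 17382 sites did not overlap. No test was run, as each group has a single list. Steps were tested on simulated data. Alternatives changed the overlap, the q limit, the list length, the lists required, the cluster gap and the ranking. Results of some genes are left out of the text and are not reported here. No genome was used here, so composition and motifs of elements away from RefSeq starts were not analysed. Scripts ran in Python 3.11.15 with pandas 2.3.3, numpy 2.4.6, matplotlib 3.10.9 and scipy 1.17.1.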

Additional observations from a re-analysis of the deposited data

How the results depend on the processing

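The number of elements was 1548 in place of 3234 when peaks had to overlap by 50% of both, and 2434 to 4098 under the 13 other settings, highest with the D2 CS list left out of the requirement. The median distance was 50.9 kb when measured from the peak edge to a gene body. The share in clusters was 10.7% with gaps of at most 10 kb, 34.4% with 50 kb, 12.3% with 50% overlap, 20.2% with lists of equal length (27898 peaks) and 21.0% with neighbours under 1 kb merged. The median D1 SS width was 612 bp with 50% overlap and 583 bp with equal lists. The median D1 SS percentile was 71.1 among intergenic peaks, 67.0 by q and 73.2 with equal lists. Ranks among elements alone gave 129 and 158 elements above and below in SS, 107 and 205 in CC, and 210 and 215 for the lists with 4 or 8 and with 1 or 2 libraries on top. That ranking and the merging of neighbours were added after the data were seen. With 50% overlap, 43.5% of immediate-early, 40.6% of other activity-regulated and 12.5% of adhesion peaks were elements, beside 19.7% of all. The cause of these differences was not tested. No paired analysis was possible because the lists have no column per library, and leaving out single libraries could not be run for the same reason. The authors' distance column is empty for intergenic peaks and was not used as an alternative.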
